A study of Mus musculus with 7 samples.

Results

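The C/EBP transcription factors and the Tribbles proteins that control them were followed in hematopoietic stem cells (HSCs) with and without Cebpa. The genes were Cebpa, Cebpb, Cebpd, Cebpe, Cebpg and Ddit3 of the C/EBP family and the Tribbles genes Trib1 and Trib2. They were named by symbol, with earlier results of these data known. All 8 of 8 were measured, each by 1 probe set, among 19938 genes on the array. The HSCs were sorted from bone marrow of adult female C57BL/6 mice as lineage-negative cells with Sca1, c-Kit and CD150 and without CD48, and 1 Affymetrix Mouse Gene ST array was run per mouse by the design of the series. Cebpa Δ/Δ mice (flox/flox;Mx1Cre, 4 arrays) carried Cebpa alleles flanked by loxP sites and the Mx1Cre transgene, and Cebpa fl/fl mice (flox/flox, 3 arrays) carried the same alleles without Cre. All mice received the interferon inducer pIpC (pIC in the labels) and were killed at day 18. The Mx1 promoter answers to interferon and is not confined to HSCs, so Cebpa can be deleted in other cells of these mice too, and the controls lacked the transgene as well as the deletion. By the methods, mice also drank ciprofloxacin after the deletion. The labels speak of triplicates per genotype, whereas the samples number 4 and 3. Arrays carry the genotype and the labels' replicate number as their name.

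C/EBP proteins bind DNA as dimers through a basic region and a leucine zipper (bZIP), and every member can pair with the others. C/EBPα, encoded by Cebpa, drives progenitors towards granulocytes and monocytes, C/EBPβ takes over in emergency granulopoiesis and macrophages, and C/EBPε completes the maturation of neutrophils. C/EBPγ lacks an activation domain, and CHOP, the product of Ddit3, turns its partners away from the usual C/EBP sites. Tribbles proteins are pseudokinases without ordinary kinase activity. TRIB1 and TRIB2 bring C/EBPα to the ubiquitin ligase COP1, which marks it for destruction, and either protein causes acute myeloid leukemia in mice when overexpressed. An array measures their RNA and says nothing of C/EBP protein levels.

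The 7 arrays had median intensities between 46.2 and 50.4, and their mean correlations with the other arrays lay between 0.979 and 0.985 over genes. Of the HSC-like markers, 11 of 12 were measured and all 11 lay above the median gene level of 5.86 on the log2 scale in their mean over the arrays. Their log2 fold changes ran from -0.51 to -0.10, with a median of -0.29, and 0 of 11 passed the study's thresholds. Their summed linear intensity was 4157 to 7202 in Cebpa Δ/Δ and 6895 to 7567 in Cebpa fl/fl, and the part of this shift in the results was not tested. Of the 8 C/EBP and Tribbles genes, 4 lay above that level (Cebpb, Cebpg, Ddit3 and Trib2) and 4 lay below it. Trib2 did so only through Cebpa Δ/Δ, where its mean was 6.76. In Cebpa fl/fl its mean was 5.85, slightly below that level. As a gauge of background, 1194 olfactory and vomeronasal receptor genes had a 95th percentile between 4.87 and 4.96 in the arrays. 7 of the 8 genes lay above it in 7 of 7 arrays, and Trib1 in 6 of 7. Identical values recurred between arrays in this file. Of all genes, 63.6% had at least 2 arrays at exactly the same deposited value, as did 3 of the 8 C/EBP and Tribbles genes (Cebpa, Cebpd and Cebpg), and ties were more frequent below the median gene level (81.3%) than above it (45.8%).

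Trib2 was higher and Cebpa and Cebpe were lower in Cebpa Δ/Δ than in Cebpa fl/fl HSCs, each with groups that did not overlap, while Cebpb, Cebpd, Cebpg, Ddit3 and Trib1 overlapped between genotypes. Fold changes are given as the log2 mean of Cebpa Δ/Δ minus that of Cebpa fl/fl. They ran from -0.41 for Cebpa to 0.92 for Trib2, with 5 of 8 above 0, against 49.7% of all genes. The study's thresholds were a change over 1.5-fold with an unadjusted p under 0.05. By these, 1 of 8 genes was higher (12.5%) and 0 were lower, against 1.57% of all genes higher, 0.617% lower and 2.19% in either direction. Without the fold limit, 3 of 8 passed by limma (1 higher and 2 lower), against 7.48% of all genes (4.4% higher and 3.08% lower). The groups did not overlap for 3 of 8 (1 higher and 2 lower), against 5.97% of all genes (3.51% higher and 2.46% lower). In both counts 1 of the 3 was Cebpa, the gene deleted in Cebpa Δ/Δ, whose decrease belongs to the design. The median absolute log2 fold change of the 8 was 0.30, against 0.09 for all genes. Absolute changes hold the spread between mice as well as any effect of the genotype, and the genes were not matched by signal level. After Benjamini-Hochberg adjustment over 19938 genes, limma called 0 of 8 and 0.0% of all genes, and the lowest adjusted p of any gene was 0.207. With separate mice per array, these p-values measure the spread between mice.

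**Figure D1:**
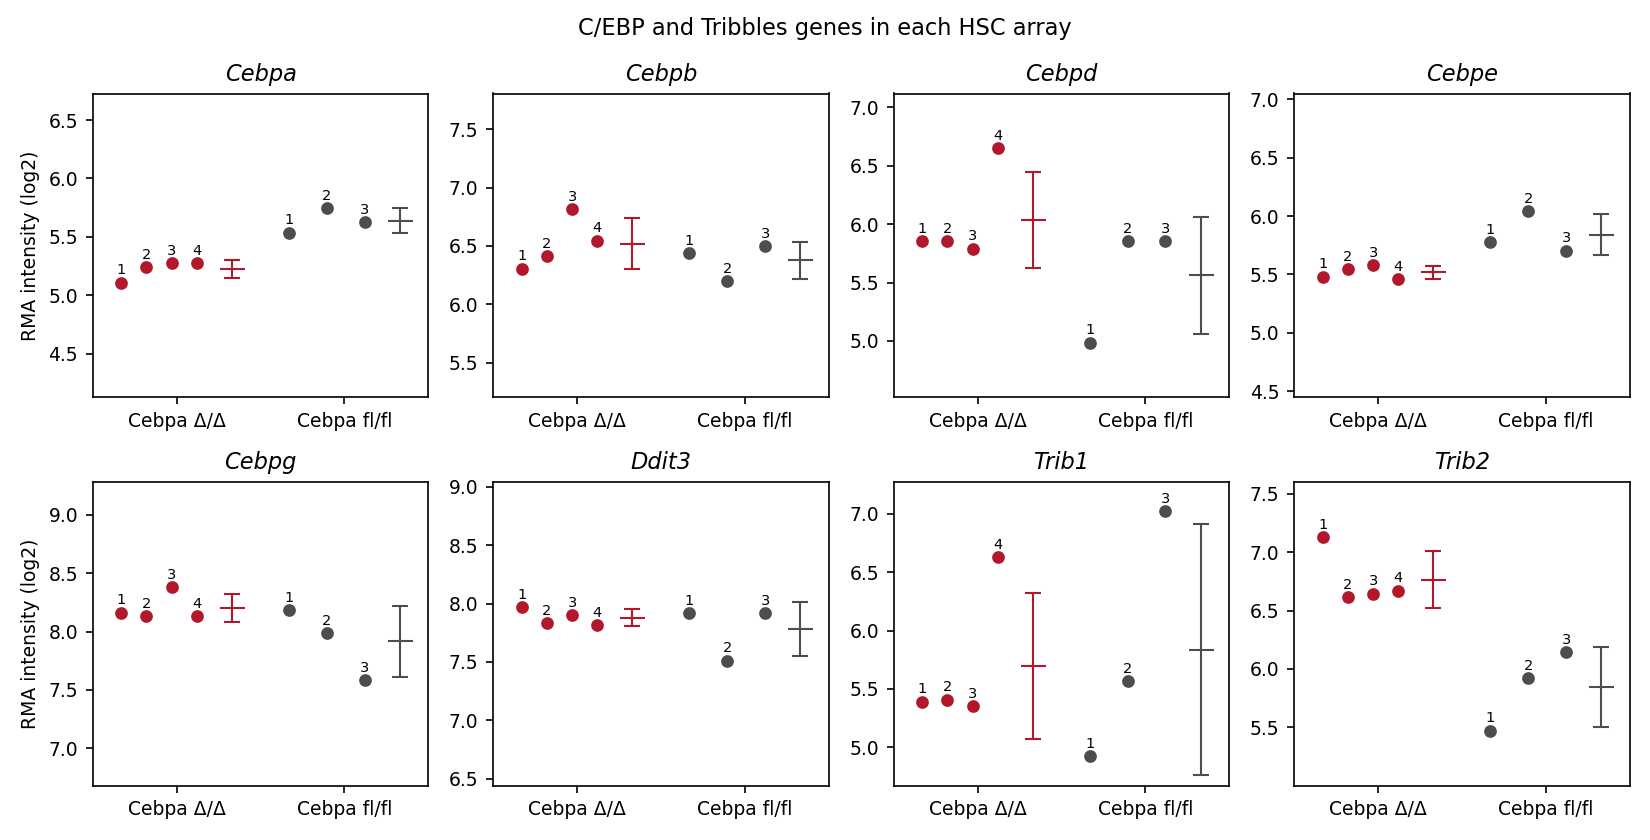
RMA intensity (log2) of each C/EBP and Tribbles gene in every array, Cebpa Δ/Δ (n = 4) left of Cebpa fl/fl (n = 3), with the replicate number above each point and the mean ± SD beside it. Trib2 points were all higher and Cebpa and Cebpe points all lower in Cebpa Δ/Δ, and Trib1 had 1 high array in each genotype.

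**Figure D2:**
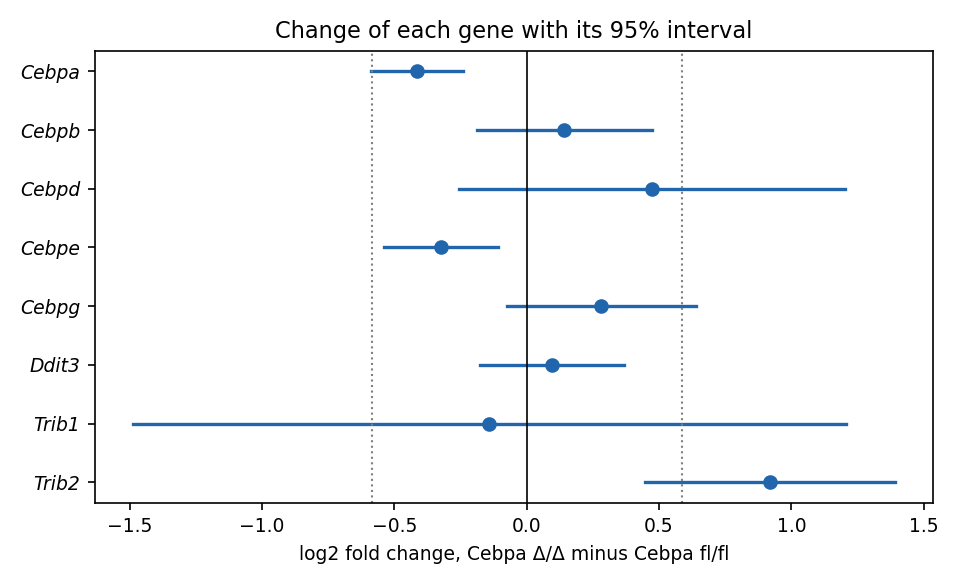
Difference of each C/EBP and Tribbles gene between Cebpa Δ/Δ and Cebpa fl/fl (log2 fold change, x axis), with 95% confidence intervals of the limma fit as bars and dotted lines at a 1.5-fold change. The intervals of Cebpa, Cebpe and Trib2 left out 0, and that of Trib1 was the widest, from -1.49 to 1.21.

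Cebpa, the targeted gene, was lower in every Cebpa Δ/Δ array. It measured 5.11, 5.24, 5.27 and 5.27 in Cebpa Δ/Δ 1 to 4, compared with 5.54, 5.75 and 5.63 in Cebpa fl/fl 1 to 3, on the log2 scale. On the linear scale of the file this was 34.5, 37.8, 38.6 and 38.6 in Cebpa Δ/Δ and 46.4, 53.7 and 49.4 in Cebpa fl/fl. No Cebpa Δ/Δ array reached the lowest Cebpa fl/fl array, and in both genotypes Cebpa was dimmer than the median gene. The means were 5.22 ± 0.08 (SD, n = 4) in Cebpa Δ/Δ and 5.64 ± 0.11 (SD, n = 3) in Cebpa fl/fl, a log2 fold change of -0.41 (SE 0.07, 95% confidence interval -0.59 to -0.24), or 1.33-fold lower. The exact two-sided permutation p was 0.0286, the smallest that the 35 splits of 7 arrays allow. By limma's unadjusted p of 0.000923 Cebpa ranked 52 of 19938 genes, with an adjusted p of 0.337, and its change was under the 1.5-fold limit. The loxP sites lie in the 5′ untranslated region shortly after the transcription start and beyond the polyadenylation signal, so nearly the whole transcript is in the deleted segment. Which share of the sorted cells had kept Cebpa, and how much of the dim signal was background, cannot be read from this probe set. By PCR on whole bone marrow and spleen, the study reports complete recombination of the allele in Cebpa Δ/Δ mice.

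The promoter in front of that segment stays on the deleted allele. Windows from 250 bases before to 50 bases after the start (RefSeq, GRCm38.p6) were given for 5 of the 8 genes, Cebpa, Cebpb, Cebpg, Ddit3 and Trib2. They were searched on both strands for motifs of the C/EBP family and of its bZIP partners. TTGCGC, a part of the palindromic site that C/EBP proteins prefer, was found only in the Cebpa window among the 5, at -185 to -180 from the start, and in 6.49% of all 32851 windows of this length. C/EBPα is known to act on its own promoter in mouse. The first stretch below has this match in capitals, at chr7:35119097-35119124 on the plus strand. The second, at chr7:35119144-35119168, is where a primer of the study's recombination PCR matches the plus strand, upstream of the start at -149 to -125. Both lie outside the flanked segment by the methods' description of the allele.
Cebpa promoter, partial C/EBP site: gtcagtgggcgTTGCGCcacgatctctc
Cebpa promoter, primer match: ccactcaccgccttggaaagtcaca

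Cebpg lies next to Cebpa on chromosome 7 and encodes C/EBPγ, a partner without an activation domain. It measured 8.16, 8.13, 8.38 and 8.13 in Cebpa Δ/Δ 1 to 4, compared with 8.18, 7.98 and 7.58 in Cebpa fl/fl 1 to 3. The groups overlapped through Cebpa fl/fl 1, which lay above 3 of the 4 Cebpa Δ/Δ arrays, while Cebpa fl/fl 3 was the lowest. The log2 fold change was 0.28 (SE 0.15, 95% confidence interval -0.08 to 0.64), with an adjusted p of 0.703 by limma and an exact permutation p of 0.143. It was 0.42 without Cebpa fl/fl 1, where limma's unadjusted p was 0.0277, and 0.12 without Cebpa fl/fl 3. The Cebpg window, on the minus strand of chromosome 7, held the CCAAT box from which the family took its name 2 times, as the reverse complement ATTGG (capitals), at chr7:35056640-35056667 and chr7:35056579-35056606. CCAAT was found in 37.41% of all windows, and today the box is known as a site of the factor NF-Y.
Cebpg promoter, upstream box: acacggcctgtgATTGGctggtggagct
Cebpg promoter, box near the start: agcagcgcttctATTGGtcacggcggcg

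Of the 3 genes on each side of Cebpa, 1 of 6 passed the study's thresholds, against 2.19% of all genes in either direction. Pepd, which encodes the dipeptidase prolidase, measured 6.44, 6.81, 6.59 and 6.27 in Cebpa Δ/Δ 1 to 4, compared with 5.50, 6.20 and 5.59 in Cebpa fl/fl 1 to 3, so its groups did not overlap. It was 1.70-fold higher (log2 fold change 0.77, SE 0.20) with an adjusted p of 0.548 by limma. Chst8 and Cebpg on that side and Slc7a10, Lrp3 and Wdr88 on the other did not pass, with log2 fold changes between -0.23 and 0.28. Cebpg was the only C/EBP neighbour within this stretch. By the methods, the floxed allele also carried a PGK-neo gene between loxP sites, downstream of Cebpa. What this insert contributed to the neighbours' values was not tested.

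Cebpe encodes C/EBPε, which switches on the secondary granule genes of late neutrophil precursors. It measured 5.48, 5.55, 5.58 and 5.46 in Cebpa Δ/Δ 1 to 4, compared with 5.78, 6.04 and 5.70 in Cebpa fl/fl 1 to 3. Every Cebpa Δ/Δ array lay below every Cebpa fl/fl array, and Cebpa fl/fl 2 was the highest. The means were 5.52 ± 0.06 (SD, n = 4) in Cebpa Δ/Δ and 5.84 ± 0.18 (SD, n = 3) in Cebpa fl/fl, a log2 fold change of -0.32 (SE 0.09, 95% confidence interval -0.54 to -0.11), or 1.25-fold lower. The exact permutation p was 0.0286, and limma's unadjusted p of 0.00963 became 0.581 after adjustment. Like Cebpa, Cebpe did not reach the 1.5-fold limit.

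Among the secondary granule genes, 7 of 12 passed the study's thresholds as lower and 0 as higher, with a median log2 fold change of -0.79. They included Ngp (-5.14, SE 0.60), Lcn2 (-5.12, SE 0.55), Chil3 (-4.56, SE 0.59) and Camp (-3.98, SE 0.59), which encode granule proteins of neutrophils. A list of neutrophil-like markers shares several of these genes, and 9 of its 12 were lower, with a median of -2.60. Its summed linear intensity was 634, 754, 1346 and 890 in Cebpa Δ/Δ 1 to 4, compared with 13566, 16766 and 7210 in Cebpa fl/fl 1 to 3. Cebpe and this sum did not follow the same order within Cebpa Δ/Δ, where array 4 was the lowest for Cebpe and above arrays 1 and 2 for the sum, whereas within Cebpa fl/fl the order was 2 above 1 above 3 for both. S100a8, the most abundant marker together with S100a9, measured 5.80, 5.64, 8.76 and 7.01 in Cebpa Δ/Δ, against 12.22, 12.26 and 11.53 in Cebpa fl/fl. The sort excluded lineage-positive cells, and the part that mature neutrophil RNA had in the Cebpe values was not tested. In bulk samples fewer cells of a type and less RNA per cell cannot be told apart.

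**Figure D3:**
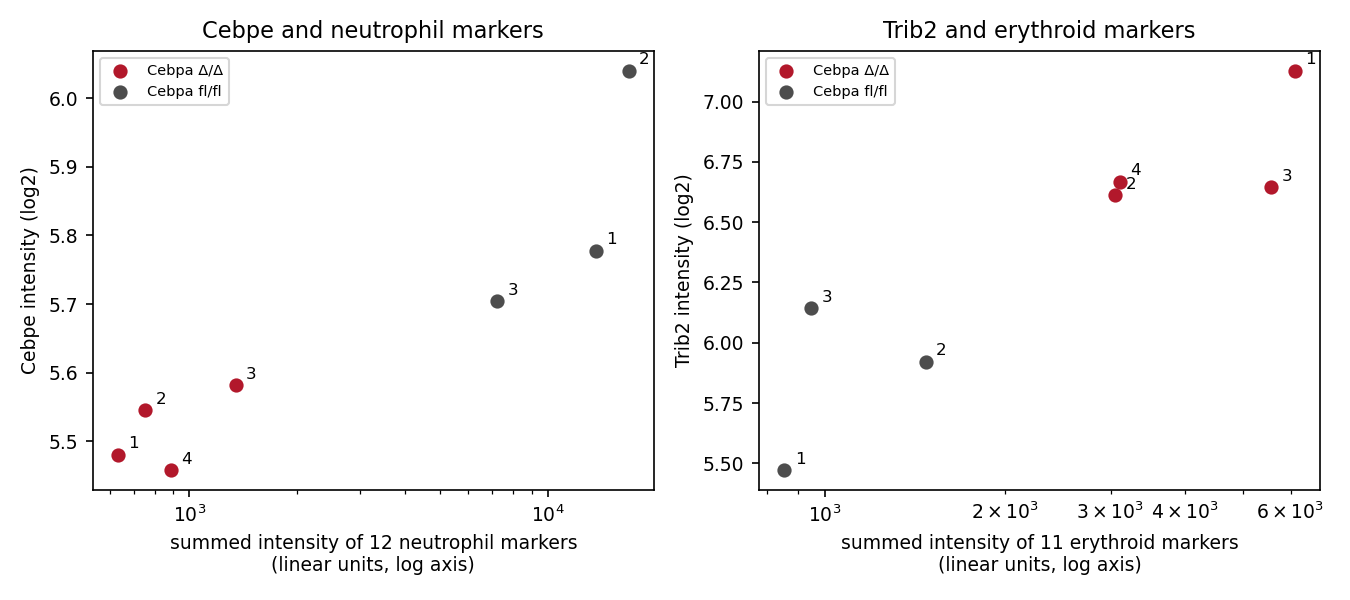
Log2 intensity of Cebpe (left) against the summed linear intensity of 12 neutrophil-like markers and of Trib2 (right) against that of 11 erythroid-like markers, on logarithmic x axes, 1 point per array of Cebpa Δ/Δ (n = 4) and Cebpa fl/fl (n = 3). The genotypes did not overlap on either axis of either panel.

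Cebpb, whose product C/EBPβ acts in emergency granulopoiesis and macrophages and can replace C/EBPα in part, did not differ between genotypes beyond its spread. It measured 6.31, 6.41, 6.81 and 6.55 in Cebpa Δ/Δ 1 to 4, compared with 6.44, 6.20 and 6.50 in Cebpa fl/fl 1 to 3, and the groups overlapped. Cebpa Δ/Δ 3 was the highest array. The log2 fold change was 0.14 (SE 0.14), its 95% confidence interval ran from -0.19 to 0.47, and the adjusted p was 0.790 by limma. A 1.5-fold increase lay outside that interval.

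Cebpd encodes C/EBPδ, which is induced by IL-6 through STAT3. It measured 5.85, 5.85, 5.79 and 6.65 in Cebpa Δ/Δ 1 to 4, compared with 4.98, 5.85 and 5.85 in Cebpa fl/fl 1 to 3. 4 of the 7 arrays, from both genotypes, held exactly the same value, Cebpa Δ/Δ 4 was high and Cebpa fl/fl 1 was low. The log2 fold change of 0.47 (SE 0.30) had a 95% confidence interval from -0.26 to 1.20 and an adjusted p of 0.736 by limma. It was 0.18 without Cebpa fl/fl 1 and 0.27 without Cebpa Δ/Δ 4.

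Of the IL-6, STAT3 and inflammatory genes that act upstream of Cebpb and Cebpd, 17 of 20 were measured and 0 passed the study's thresholds in either direction, with a median log2 fold change of -0.02. Stat3 measured 8.72, 9.37, 8.72 and 9.15 in Cebpa Δ/Δ 1 to 4, compared with 8.90, 9.02 and 9.14 in Cebpa fl/fl 1 to 3. The highest change in this list was that of Socs3, a feedback inhibitor of STAT3 signalling, at 0.61 (SE 0.27), with an unadjusted p of 0.0603 by limma. Socs3 is named here as the extreme of its list, after its values were seen.

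Ddit3 encodes CHOP, which pairs with other C/EBP proteins and is raised by ATF4 in the integrated stress response. It measured 7.97, 7.83, 7.90 and 7.82 in Cebpa Δ/Δ 1 to 4, compared with 7.92, 7.51 and 7.92 in Cebpa fl/fl 1 to 3. All arrays except Cebpa fl/fl 2 lay close together. The log2 fold change was 0.10 (SE 0.11, 95% confidence interval -0.17 to 0.37), with an adjusted p of 0.821 by limma, and without Cebpa fl/fl 2 it was -0.04. A 1.5-fold change in either direction lay outside the interval.

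Of the integrated stress response and CHOP genes, 26 of 28 were measured, 2 passed the study's thresholds as higher and 0 as lower, with a median of 0.09. Asns, which makes asparagine and is a target of ATF4, measured 8.80, 8.08, 8.85 and 8.48 in Cebpa Δ/Δ 1 to 4, compared with 7.36, 7.91 and 7.21 in Cebpa fl/fl 1 to 3, a log2 fold change of 1.06 (SE 0.24). Vldlr, a lipoprotein receptor, had a log2 fold change of 0.88 (SE 0.22), and the adjusted p of these genes was 0.481 and 0.507 by limma. For both Asns and Vldlr, all arrays of Cebpa Δ/Δ lay above those of Cebpa fl/fl. The part of other cell types in these changes was not tested. Atf4 itself measured 8.94, 8.73, 8.84 and 9.24 in Cebpa Δ/Δ, against 8.41, 8.67 and 9.35 in Cebpa fl/fl, and overlapped.

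The Ddit3 window held the AP-1 motif TGANTCA at -242 to -236, found in 7.808% of all windows, and 1 CCAAT box on the minus strand at -77 to -73. Its matches, in capitals, lie at chr10:127290543-127290570 and chr10:127290704-127290731 (plus strand). Fos and Jun, whose products bind the AP-1 motif, were high in 2 arrays described below. In these arrays Ddit3 was 7.82 in Cebpa Δ/Δ 4 and 7.92 in Cebpa fl/fl 3. Any action of AP-1 on Ddit3 was not tested. The C/EBP consensus TTNNGNAA (40.68% of windows) and the composite C/EBP and ATF motif TGATGNAA (3.969%) were found in 0 of the 5 windows, and the Cebpb and Trib2 windows held none of the 5 motifs. No match says only that these letters are not in this window.
Ddit3 promoter, AP-1: cgcgcgcaTGACTCActcacctcctccg
Ddit3 promoter, CCAAT box: tgccgctttctgATTGGtaggctcctgg

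Trib2, whose product directs C/EBPα to COP1, was the single gene of the 8 past the study's thresholds. It measured 7.13, 6.61, 6.64 and 6.67 in Cebpa Δ/Δ 1 to 4, compared with 5.47, 5.92 and 6.14 in Cebpa fl/fl 1 to 3. Every Cebpa Δ/Δ array lay above every Cebpa fl/fl array, with Cebpa Δ/Δ 1 the highest and Cebpa fl/fl 1 the lowest. The means were 6.76 ± 0.24 (SD, n = 4) in Cebpa Δ/Δ and 5.85 ± 0.34 (SD, n = 3) in Cebpa fl/fl, a log2 fold change of 0.92 (SE 0.20, 95% confidence interval 0.45 to 1.39), or 1.89-fold higher. The exact permutation p was 0.0286. By limma's unadjusted p of 0.00278 Trib2 ranked 131 of 19938 genes, with an adjusted p of 0.424. Leaving out each array in turn gave 0.73 to 1.07, and the study's thresholds were passed each time.

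Erythroid-like markers also differed between the genotypes, with 11 of 11 measured higher at the study's thresholds and a median log2 fold change of 2.20. Their summed linear intensity was 6094, 3057, 5570 and 3113 in Cebpa Δ/Δ 1 to 4, compared with 854, 1473 and 948 in Cebpa fl/fl 1 to 3. Cebpa Δ/Δ 1 was highest and Cebpa fl/fl 1 lowest both for this sum and for Trib2. Cebpa Δ/Δ 3 was close to Cebpa Δ/Δ 2 and 4 for Trib2 (6.64 beside 6.61 and 6.67) but not for the erythroid-like sum. The part of erythroid cells in the Trib2 difference was not tested. Macrophage-like markers, 4 of 9 of them higher, summed to 650 to 1276 in Cebpa Δ/Δ and 403 to 531 in Cebpa fl/fl, and T or NK cell-like markers, 2 of 10 of them higher, to 769 to 1281 in Cebpa Δ/Δ and 460 to 854 in Cebpa fl/fl. All 10 T or NK cell-like markers had log2 fold changes above 0, with a median of 0.31. The highest was 1.57 for Ccl5, a chemokine gene of these cells. Only 2 of the 10, Ccl5 and Nkg7, lay above the median gene level, and Nkg7 overlapped between genotypes. Cd3d, Cd3g, Cd8a and Ncr1 lay above the receptor background in 0 of 7 arrays. The part of these cell types was not tested either.

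Trib3, a relative outside the 8 genes that answers to CHOP and ATF4 rather than acting on C/EBPα in leukemia, was nearly constant. It measured 6.09, 6.09, 6.12 and 6.09 in Cebpa Δ/Δ 1 to 4, compared with 6.08, 6.09 and 6.04 in Cebpa fl/fl 1 to 3, a log2 fold change of 0.03 (SE 0.04). 4 arrays held exactly the same value. Of the COP1 ligase and its relatives, Trib3 included, 11 of 12 were measured and 0 passed the study's thresholds, with a median log2 fold change of 0.12. Cop1 measured 8.20, 8.41, 8.24 and 8.23 in Cebpa Δ/Δ, against 8.35, 8.07 and 8.07 in Cebpa fl/fl. Stk40, a Tribbles-related pseudokinase, had a log2 fold change of 0.24 (SE 0.16). The highest in this list was Cul4a at 0.32 (SE 0.14), a cullin that can form ligases with COP1, chosen after its values were seen.

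Trib1 stood apart from Trib2 through its spread. It measured 5.39, 5.41, 5.35 and 6.63 in Cebpa Δ/Δ 1 to 4, compared with 4.92, 5.57 and 7.02 in Cebpa fl/fl 1 to 3. The arrays Cebpa Δ/Δ 4 and Cebpa fl/fl 3 were high and the other 5 low, so the genotypes overlapped fully. The means were 5.70 ± 0.62 (SD, n = 4) in Cebpa Δ/Δ and 5.84 ± 1.07 (SD, n = 3) in Cebpa fl/fl, a log2 fold change of -0.14 (SE 0.56, 95% confidence interval -1.49 to 1.21) with an adjusted p of 0.954 by limma. The SD within genotypes was 0.833, at the 99.4 percentile of all genes, whose median was 0.155. Without Cebpa fl/fl 3 the log2 fold change was 0.45 (unadjusted p 0.352), and without Cebpa Δ/Δ 4 and Cebpa fl/fl 3 it was 0.14 (unadjusted p 0.539). The 95% confidence interval of Trib1 over all 7 arrays held changes over 1.5-fold in either direction, so these arrays cannot exclude them.

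The same 2 arrays were high for immediate early genes of the bZIP family, which were looked at because of the Trib1 values. Fos measured 4.63, 5.03, 5.07 and 9.02 in Cebpa Δ/Δ 1 to 4, compared with 5.02, 4.92 and 10.00 in Cebpa fl/fl 1 to 3. Jun measured 6.80, 6.75, 6.81 and 9.98 in Cebpa Δ/Δ, against 7.03, 6.67 and 10.13 in Cebpa fl/fl. Both encode subunits of the dimer AP-1 and are induced within minutes by many stimuli, cell isolation among them. Fosb, Junb, Jund, Atf3 and Maff were likewise highest in these arrays, and Atf3 measured 4.71, 4.48, 4.34 and 6.00 in Cebpa Δ/Δ, against 4.51, 4.38 and 6.37 in Cebpa fl/fl. Cebpd was high in Cebpa Δ/Δ 4 (6.65) and not in Cebpa fl/fl 3 (5.85), and Cebpb stood apart in neither (6.55 and 6.50). What raised these genes in 1 mouse of each genotype was not tested. Without both arrays Trib2 had a log2 fold change of 1.10 and Cebpa one of -0.43.

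**Figure D4:**
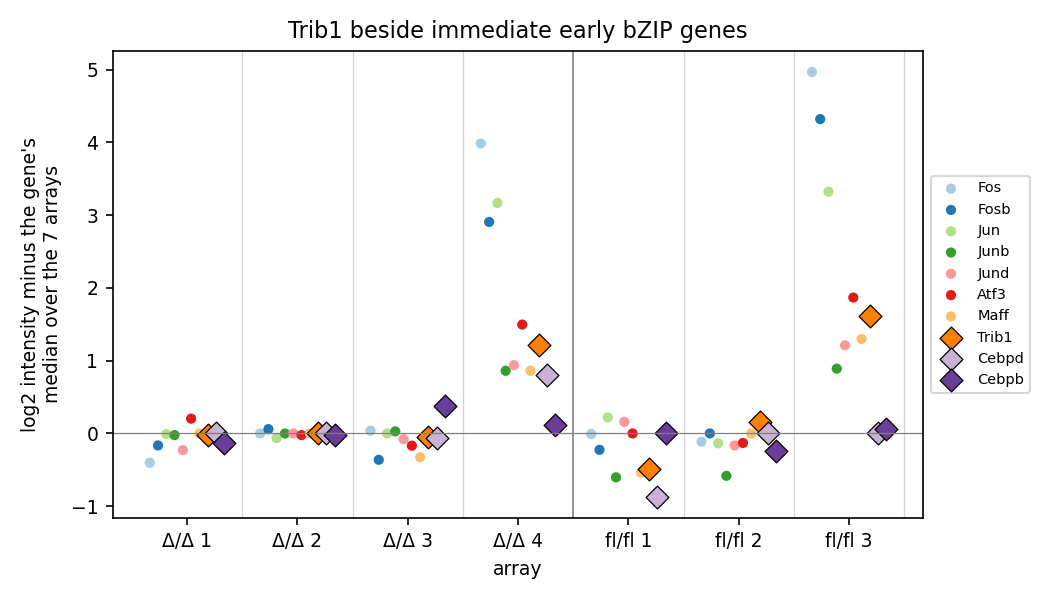
Log2 intensity of 7 immediate early bZIP genes (circles) and of Trib1, Cebpd and Cebpb (diamonds) in each array, minus the gene's median over the 7 arrays, with Cebpa Δ/Δ left of the line and Cebpa fl/fl right of it. Trib1 and the immediate early genes were high in Cebpa Δ/Δ 4 and Cebpa fl/fl 3, and Cebpd only in Cebpa Δ/Δ 4.

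Whether the genes changed by different amounts was asked for 8 pairs, with the difference of the log2 values within each array. Trib2 minus Cebpa was 2.02, 1.37, 1.37 and 1.40 in Cebpa Δ/Δ 1 to 4, compared with -0.06, 0.17 and 0.52 in Cebpa fl/fl 1 to 3, so that Trib2 moved by 1.33 more than Cebpa. The corresponding difference between the genotypes was 0.89 for Cebpd, 0.70 for Cebpg, 0.56 for Cebpb and 0.51 for Ddit3, each minus Cebpa. In these 5 pairs the genotypes did not overlap, with an exact permutation p of 0.0286, or 0.0457 after Benjamini-Hochberg adjustment over the 8 pairs. All 5 contain Cebpa, the deleted gene, whose own decrease they share. Alone, Cebpb, Cebpd, Cebpg and Ddit3 overlapped between genotypes, with exact permutation p from 0.143 to 0.629. The pairs with Cebpa therefore do not show that these genes changed. Cebpe minus Cebpa differed by 0.09 (adjusted exact p 0.327) and Trib1 minus Cebpa by 0.27 (adjusted exact p 0.657). Trib2 minus Trib1 was 1.74, 1.20, 1.29 and 0.04 in Cebpa Δ/Δ, against 0.55, 0.35 and -0.88 in Cebpa fl/fl, a difference of 1.06 with overlap (adjusted exact p 0.152). A different change of the 2 Tribbles genes was thus not shown.

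Around the family, no factor that pairs with it or acts upstream of Cebpa passed the study's thresholds. Of the bZIP partners and relatives, 36 of 37 were measured and 0 passed the study's thresholds, with a median log2 fold change of -0.04. Of the blood factors that act upstream of Cebpa, 15 of 15 were measured and 0 passed, with a median of -0.10, while the groups did not overlap for 2 of them, Erg and Lmo2. Erg and Gfi1b had the extreme changes of this list and are named after their values were seen. Erg, an ETS factor of HSCs, had a log2 fold change of -0.42 (SE 0.17, unadjusted limma p 0.0427) with groups that did not overlap. Gfi1b, a transcriptional repressor that acts in erythroid and megakaryocytic cells, had one of 0.44 (SE 0.15, unadjusted limma p 0.0268) with overlap. The adjusted p of both was 0.663 by limma. In the same limma fit Runx1, which is needed for Cebpa expression, had a log2 fold change of -0.25 (SE 0.17) and Spi1, which encodes the myeloid partner PU.1, one of 0.24 (SE 0.16). Downstream, 4 of 19 myeloid target genes of the C/EBP family were lower and 0 were higher, with a median of -0.21. They were Lcn2 (-5.12, SE 0.55), the acute phase gene Hp (-1.39, SE 0.47), the neutrophil elastase gene Elane (-2.24, SE 0.82) and Cybb (-1.21, SE 0.49), a subunit of the phagocyte oxidase. Csf3r, the G-CSF receptor gene and a target of C/EBPα, measured 8.41, 8.74, 8.12 and 8.49 in Cebpa Δ/Δ, against 8.18, 8.91 and 8.66 in Cebpa fl/fl, a log2 fold change of -0.14 (SE 0.21). Lcn2 and Csf3r also belong to the neutrophil-like list given above. The genotypes did not overlap for Lcn2, Hp and Elane, but they did for Csf3r and Cybb. For Cybb, Cebpa fl/fl 3 (5.18) lay below Cebpa Δ/Δ 1 (5.26) and 3 (5.73). The part of neutrophil RNA in these changes was not tested. These lists had been drawn up with earlier results of the arrays known, so their counts are descriptions.

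**Figure D5:**
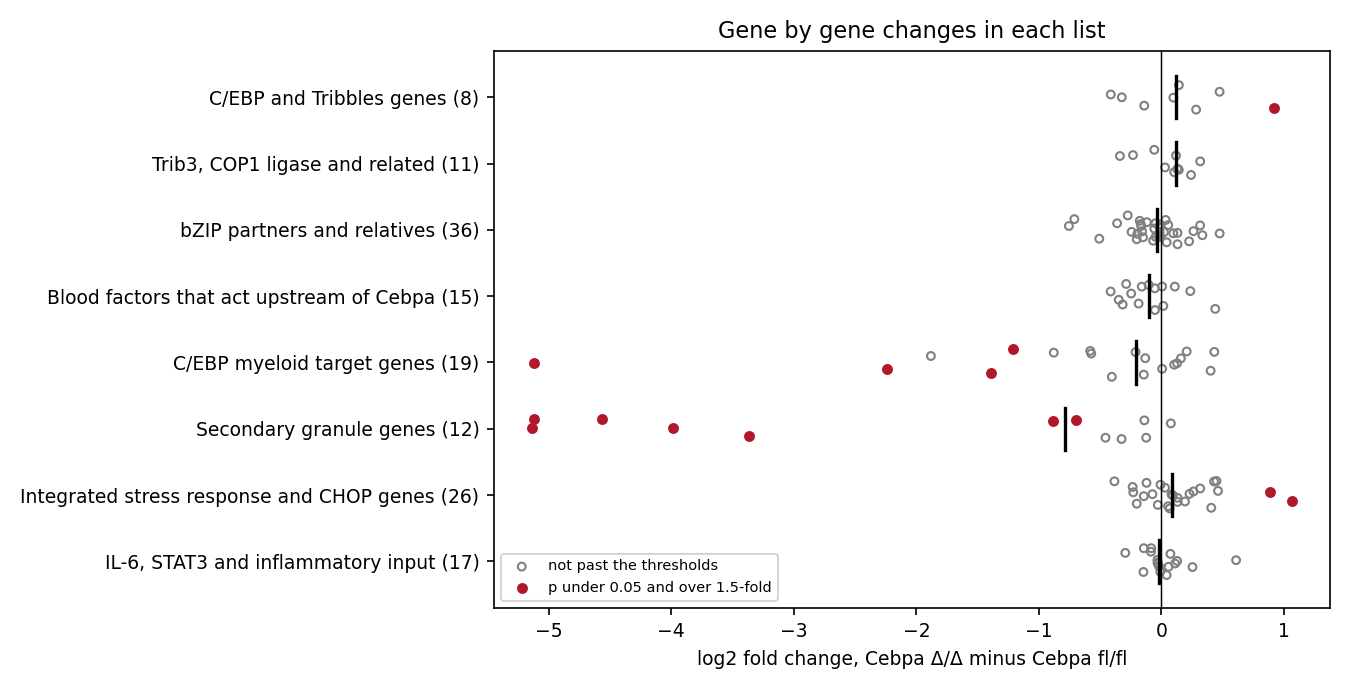
Log2 fold change (x axis, above 0 where Cebpa Δ/Δ is higher than Cebpa fl/fl) of every measured gene of the C/EBP and Tribbles set and of 7 related lists, with the list median as a bar and genes past the study's thresholds filled. Filled points were Trib2, 2 stress response genes, 4 myeloid target genes and 7 secondary granule genes.

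The genes most like Cebpa over the 7 arrays, among those above the median gene level, were AI661453 (Pearson's r 0.96), Gtf2ird1 (0.95) and Mybbp1a (0.95). Their log2 fold changes were -0.65, -0.22 and -0.16 in that order. Those most like Trib2 were Ell2 (0.98), Kif4 (0.98) and Hs6st1 (0.97), with log2 fold changes of 0.84 (SE 0.15), 0.78 (SE 0.22) and 0.58 (SE 0.16). Ell2 encodes an elongation factor of RNA polymerase II. It measured 8.20, 7.95, 8.01 and 8.0 in Cebpa Δ/Δ 1 to 4, compared with 6.92, 7.16 and 7.52 in Cebpa fl/fl 1 to 3, with the same highest and lowest array as Trib2. With 7 arrays in 2 genotypes, these correlations hold the difference between the genotypes as well as the spread within them, and they are given without a test.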

How the data were processed

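The deposited intensity values were computed by the authors with RMA, a method that removes background, brings every array to a common distribution and joins a probe set's probes, so these values hide any change in the RNA content of a cell. Partek is the software in the methods, and the submitters' processing notes list RMA and affy with no version. The file held 35556 probe sets on a linear scale from 1.51 to 9840. Since the test had been planned for log2 values, each value was converted to log2 with no pseudocount. The annotation gave 21789 probe sets 1 symbol, 1621 several and 12146 none here, and symbols were updated through RefSeq gene numbers for 21698. Of several probe sets per gene (999 genes), the one with the highest mean was used, for 19938 genes in all. Of the per-sample columns, 0 went unused.

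The difference of Cebpa Δ/Δ from Cebpa fl/fl was fitted in R 4.3.3 by limma 3.58.1 (lmFit, eBayes), with Benjamini-Hochberg adjustment over all genes, and single values were permuted over all 35 splits of the arrays (exact, two-sided). The fit was tested on simulated data. The study's thresholds, an unadjusted p under 0.05 and over 1.5-fold, were read from limma's p, since its own test for the arrays is not given in the sources used here. Named were the 8 genes, Trib3, 3 genes on each side of Cebpa in the RefSeq order, up to 4 genes past the thresholds per list and the 3 genes most like Cebpa and Trib2. Others were chosen after their values were seen. Cebpz, the other relative in this rule, is not analysed here. The 8 genes and all lists were chosen with earlier results of these data known. Alternatives were the scaling, low values, variance model, probe set rule, replicate number and leaving out arrays. The number of arrays limits the precision.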

Additional observations from a re-analysis of the deposited data

Results flagged for a closer look

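Single arrays stood apart within the 4 Cebpa Δ/Δ arrays for 4 of the 8 genes, by the share of the range that lies between that array and its nearest neighbour (Dixon's ratio), above its 95% critical value for 4 arrays. Chance flags about 1 in 20 groups when values are not tied, and how many of all genes the measure flags was not computed. Ties were present here, since Cebpa Δ/Δ 1 and 2 held the same value for Cebpd, and Cebpa Δ/Δ 2 and 4 for Cebpg. The share was 0.957 for Trib1 and 0.928 for Cebpd in Cebpa Δ/Δ 4, the array with high Fos and Jun. It was 0.890 for Trib2 in Cebpa Δ/Δ 1, at 7.13 beside 6.61 to 6.67, and without that array Trib2 kept a log2 fold change of 0.80 (unadjusted limma p 0.00535). It was 0.872 for Cebpg in Cebpa Δ/Δ 3, at 8.38 beside 8.13 to 8.16. For Trib3 it was 1.0 in Cebpa Δ/Δ 3, at 6.12, because the other 3 arrays held exactly the same value of 6.09. The 3 Cebpa fl/fl arrays are too few for this measure, so the high Trib1 value of Cebpa fl/fl 3 was not examined in this way.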

How the results depend on the processing

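Across all alternatives run, the count of C/EBP and Tribbles genes higher at the study's thresholds was 1 and of those lower 0, and 0 passed the adjusted threshold. The groups of 3 to 4 genes did not overlap when each array was left out in turn. Log2 fold changes with 1 array left out ranged from -0.46 to -0.36 for Cebpa, 0.04 to 0.21 for Cebpb, 0.18 to 0.62 for Cebpd, -0.39 to -0.22 for Cebpe, 0.12 to 0.42 for Cebpg, -0.04 to 0.17 for Ddit3, -0.60 to 0.45 for Trib1 and 0.73 to 1.07 for Trib2. Trib2, Cebpa and Cebpe kept direction and an unadjusted limma p under 0.05 in every alternative in which they were tested. Ddit3 turned to -0.038 without Cebpa fl/fl 2. Trib1 turned to 0.45 without Cebpa fl/fl 3 and to 0.14 without Cebpa Δ/Δ 4 and Cebpa fl/fl 3, a choice made after seeing the data. The difference of changes between Trib1 and Cebpa turned to -0.13 without Cebpa fl/fl 1 and to -0.02 without Cebpa Δ/Δ 4, within a range of -0.13 to 0.87. The cause of these turns was not tested.

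Over all genes, 314 were higher and 123 lower at the study's thresholds, against 169 and 97 without Cebpa Δ/Δ 3 and Cebpa fl/fl 1, the arrays least correlated with the others and chosen after seeing the data, 249 and 82 without variance moderation and 469 and 499 over every probe set. Restricted to genes above the median level, where the 4 dim genes were not tested, 5 genes passed the adjusted threshold, none of them a C/EBP or Tribbles gene. With the replicate number as a block Trib2 had a log2 fold change of 0.95 (unadjusted limma p 0.0348), Cebpa -0.43 and Cebpe -0.30, and 292 genes were higher and 120 lower. The deviations of same-numbered arrays correlated at -0.02, 0.10 and -0.18, and 1 of 6 arrays correlated best with its own number. Pairing by number was thus not shown, and so few arrays cannot exclude it. Low signal limits Cebpa, Cebpd, Cebpe and Trib1, which lay below the median gene level. It also limits Trib2 in Cebpa fl/fl, where its mean of 5.85 lay slightly below that level. Trib2 stayed among the genes above the median level through its Cebpa Δ/Δ values.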
